A study of Mus musculus with 12 samples.

Results

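The genes described here write, copy, read and remove DNA methylation: the methyltransferases Dnmt1, Dnmt3a and Dnmt3b, the Dnmt1 partner Uhrf1, the dioxygenases Tet1, Tet2 and Tet3, the reader Mbd2 and the glycosylase Tdg. They were taken from the expression table by symbol, with no threshold on their values, and are 9 of its 29838 genes. All 9 were found, and all 9 passed the filter on low values (3 or more libraries with an FPKM of 1 or more), as did 12994 genes in all. Tet1 passed with 3 libraries alone, Poly replicates 2 and 3 and Ortho replicate 3, so that it entered the test through the stages in which it was high.

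RNA was sequenced from erythroblasts of wild-type C57BL/6 male mice, 8 weeks old, with no treatment and no transgene in any group. Marrow cells were depleted of CD45+ cells on a column and sorted as negative for CD45, CD11b and GR1. Proerythroblasts (Pro) were gated as CD44 high and Ter119 low, and basophilic (Baso), polychromatic (Poly) and orthochromatic (Ortho) erythroblasts were told apart by their CD44 signal and size. There were 3 libraries for each of the 4 stages, and nothing in the sources ties them to separate animals, so p-values measure the spread between these samples, which may be technical.

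DNA methylation is set at cytosines next to guanines (CpG) by de novo enzymes, Dnmt3a and Dnmt3b, and copied to the new strand after replication by Dnmt1, which Uhrf1 guides to half-methylated sites. Tet enzymes oxidise the methyl group, and Tdg cuts out the most oxidised forms for base excision repair. Mbd2 binds methylated CpG and brings in the NuRD complex, which removes histone acetyl groups and moves nucleosomes. Maturing erythroblasts are known to lose methylation across the genome during their last divisions. Tet2 is often mutated in myeloid disease, and Mbd2 is known to take part in globin gene silencing.

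Promoter windows of 300 bases, from 250 before to 50 after the transcript start, were read from RefSeq on GRCm38.p6 (mm10). Of the 9 genes, 8 matched, with 13 windows, and Mbd2 is named only. The 3 windows printed belong to Dnmt1 and Uhrf1, which fell together below, and to Tdg, which fell on another schedule. Capitals mark the letters TTTCCCGC, TTTCGCGC, TTTGCCGC or TTTGGCGC on either strand, which are spellings of the E2F motif. For Dnmt1 and Uhrf1 the window with most matches is shown.
Dnmt1: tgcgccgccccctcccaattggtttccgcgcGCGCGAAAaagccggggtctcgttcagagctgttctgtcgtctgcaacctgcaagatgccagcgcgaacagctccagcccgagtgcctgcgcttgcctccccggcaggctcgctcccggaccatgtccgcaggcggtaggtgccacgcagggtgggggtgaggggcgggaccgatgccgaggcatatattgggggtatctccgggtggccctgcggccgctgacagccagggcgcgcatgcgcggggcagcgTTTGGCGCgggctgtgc
Uhrf1: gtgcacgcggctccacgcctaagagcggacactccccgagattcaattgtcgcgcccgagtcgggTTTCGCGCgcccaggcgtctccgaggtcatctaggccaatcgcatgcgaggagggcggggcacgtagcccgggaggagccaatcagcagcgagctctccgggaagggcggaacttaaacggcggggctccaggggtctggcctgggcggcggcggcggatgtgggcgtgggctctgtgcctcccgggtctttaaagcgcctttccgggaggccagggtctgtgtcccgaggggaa
Tdg: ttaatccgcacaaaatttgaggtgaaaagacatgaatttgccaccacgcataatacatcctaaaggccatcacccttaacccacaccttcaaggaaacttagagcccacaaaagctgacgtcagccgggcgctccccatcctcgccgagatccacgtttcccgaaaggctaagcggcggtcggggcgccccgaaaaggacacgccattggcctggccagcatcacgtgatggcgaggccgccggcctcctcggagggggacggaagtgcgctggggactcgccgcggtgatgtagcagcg

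The Dnmt1 window lies at chr9:20952574-20952873 on the minus strand. It holds GCGCGAAA, which reads TTTCGCGC on the other strand, from 219 bases before the start, and TTTGGCGC from 33 bases after it. The Uhrf1 window lies at chr17:56304063-56304362 on the plus strand and holds TTTCGCGC from 185 bases before the start. The Tdg window, chr10:82629588-82629887 on the plus strand, holds none of the 4 spellings. Neither do the 2 further windows of Dnmt1, the 1 further window of Uhrf1 or the windows of the other 5 genes matched. Of all 32851 windows, 2.26% hold at least 1 of these spellings and 0.0974% at least 2. These letters are rich in CpG, as are these windows of Dnmt1 and Uhrf1 with 33 CpG each (12, 2 and 12 in the further windows), against a median of 7 over all windows. Among the 5543 windows with more than 25 CpG the share with a match was 5.2%. The matches describe the letters alone.

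Levels are given as FPKM, fragments scaled to transcript length and to the mapped fragments of the library, so that they can be set side by side between genes. Depth could not be read from the values and is unknown. The summed FPKM ranged from 505624 to 691033 per library, and hemoglobin genes took 6.98% to 10.7% of it in Pro and 47.2% to 52.6% in Ortho. FPKM is relative to all other transcripts. The median change of all genes tested, on the log2 scale, was below 0, at -0.23 for Baso, -0.20 for Poly and -0.42 for Ortho against Pro. Fewer cells of a type in a sort and less RNA per cell cannot be told apart in such bulk samples. All 9 erythroid markers were detected in every stage, and Hbb-bs, a beta-globin gene, rose from Pro to Ortho by a log2 fold change of 3.15. Of the 9, 5 rose and 4 fell, beside 22.7% and 53.2% of all genes tested. The 4 fell by at least 2-fold, beside 23.8% of all genes. They were the transcription factors Gata1 (130.5 to 30.9 FPKM), Klf1 (319.8 to 69.3) and Tal1 (143 to 66.9) and the erythropoietin receptor Epor (149 to 46.5). Of 4 early markers, however, Gata2, Myb and Cd44 rose in Ortho against Pro, beside 22.7% of all genes tested. Their rise goes against their known decline in erythroid maturation. Kit, the remaining early marker, did not pass the test, with a mean of 17.8 FPKM in Pro and 14.5 in Ortho. Summed FPKM of 8 neutrophil markers ranged from 6835 to 8541 in Pro, 11752 to 13776 in Baso, 15098 to 17888 in Poly and 13412 to 16669 in Ortho, and none of the 8 was at 0.

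Uhrf1, Mbd2 and Dnmt1 were the abundant genes of the set at every stage and the 3 of the 9 that fell by at least 2-fold from Pro to Ortho, beside 23.8% of all genes tested. With hemoglobin genes left out of the scaling Uhrf1 alone did. In Pro their FPKM lay above that of 96.0% (Dnmt1), 96.8% (Mbd2) and 97.4% (Uhrf1) of the genes tested, and in Ortho above 90.6%, 93.2% and 92.1%. In Pro, Tdg followed with 18.0 ± 0.588 FPKM and Tet3 with 9.50 ± 0.527 (SD, n = 3), then Dnmt3a, Tet2, Dnmt3b and Tet1. Tet3 stood above Tdg in Poly and Ortho, and Dnmt3a overlapped with Tet2 at every stage. The plot of FPKM by library shows all 9 genes.

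**Figure D1:**
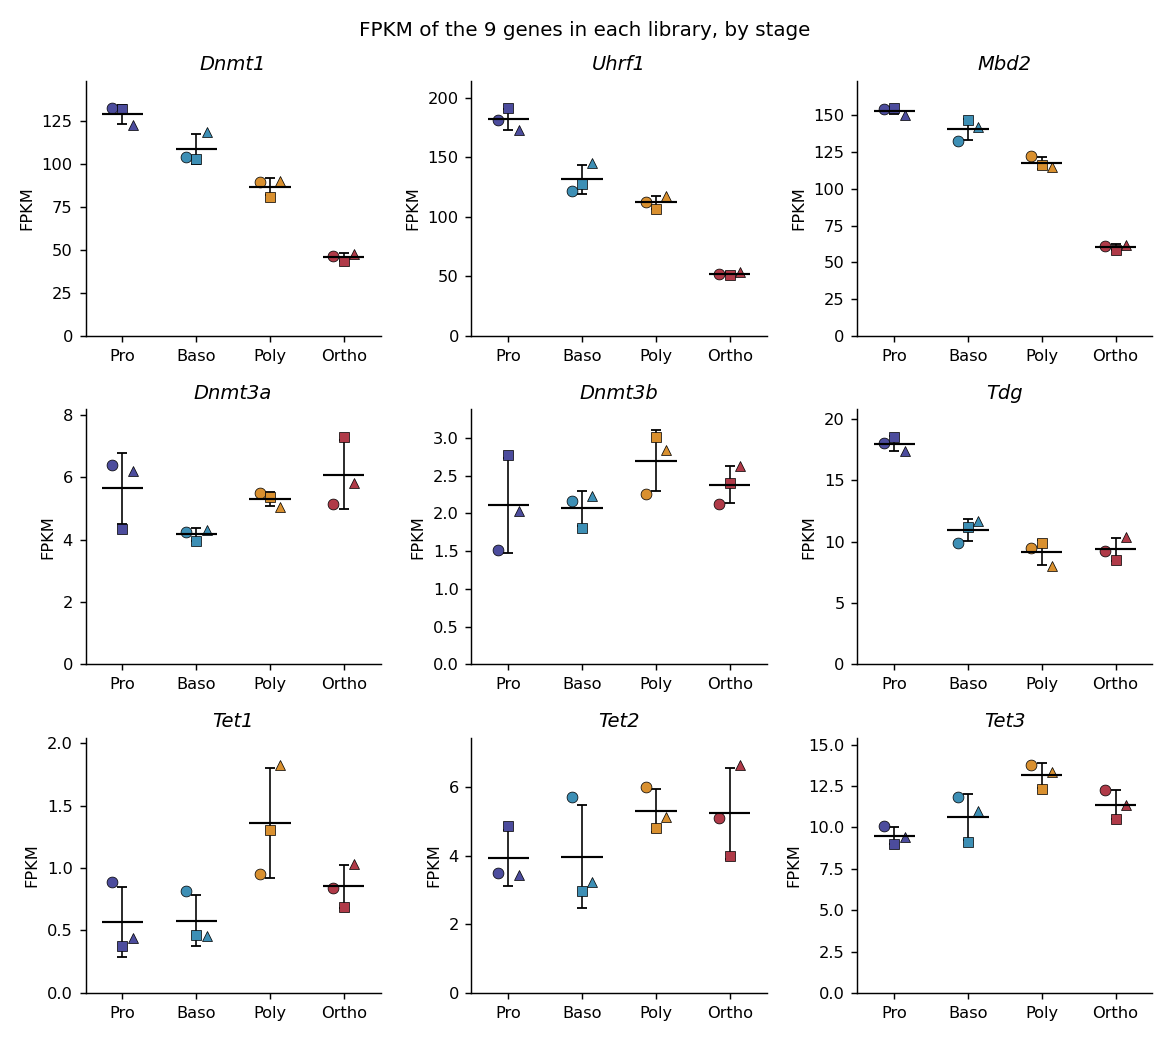
FPKM of each of the 9 genes in the 12 libraries (vertical axes start at 0 and differ between panels), with circles, squares and triangles for replicates 1, 2 and 3, a line for the stage mean and bars for the SD (n = 3). Dnmt1, Uhrf1 and Mbd2 step down to Ortho, Tdg is lower from Baso on than in Pro, and the Dnmt3 and Tet genes show no such step.

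Uhrf1, which reads half-methylated CpG at the replication fork and recruits Dnmt1, lies on chr17:56303321-56323486 of mm10 (plus strand). Its FPKM was 181, 191 and 173 in the 3 Pro libraries, 121, 127 and 145 in Baso, 112, 107 and 118 in Poly and 52.4, 50.8 and 54.0 in Ortho. Every library of a stage lay below every library of the stage before it, and the share of all genes that did so is not given here. Against Pro the log2 fold change on log2(FPKM + 1) in limma was -0.47 for Baso (standard error 0.08, adjusted p = 0.000365), -0.69 for Poly (adjusted p = 1.48e-05) and -1.77 for Ortho (adjusted p = 7.85e-09). Ortho held 28.8% of the Pro mean, and 3.81% of the genes tested had a lower fold change. The Baso value missed the threshold with hemoglobin genes left out of the scaling (-0.15) or with libraries centred on their median (-0.17).

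Dnmt1, the maintenance methyltransferase, lies on chr9:20907209-20959888 (minus strand). Its FPKM was 133, 132 and 123 in Pro, 104, 103 and 119 in Baso, 89.5, 81.3 and 90.03 in Poly and 46.6, 43.5 and 47.7 in Ortho. As for Uhrf1, the libraries of neighbouring stages did not overlap. Dnmt1 fell in Ortho against Pro by 1.47 on the log2 scale (standard error 0.08, limma adjusted p = 2.55e-08), to 35.5% of the Pro mean, and in Poly by 0.57 (limma adjusted p = 5.65e-05). In Baso the log2 fold change was -0.25 (limma adjusted p = 0.0160), close to the median of all genes, and it turned to 0.07 once hemoglobin genes were left out and to 0.05 once libraries were centred on their median. It also missed the threshold without Baso replicate 1 (-0.22), without Baso replicate 2 (-0.21) and in a fit of the 2 stages alone.

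Mbd2, the methyl-CpG reader, lies on chromosome 18 from 70568189 to 70626131 (plus strand). Its FPKM was 154, 155 and 150.4 in Pro, 133, 147 and 142 in Baso, 122, 116 and 115 in Poly and 61.1, 58.5 and 61.8 in Ortho. These libraries too stepped down at each stage without overlap, with a narrow spread in Pro and Ortho. Without the share of all genes that did so, the lack of overlap does not set these genes apart. Mbd2 fell in Ortho against Pro by 1.33 on the log2 scale (standard error 0.06, limma adjusted p = 1.03e-08), to 39.5% of the Pro mean. The log2 fold change was -0.38 in Poly (limma adjusted p = 0.000209), which was lost with hemoglobin genes left out (-0.03) or median centring (-0.13). In Baso it was -0.13 (limma adjusted p = 0.0985), and its call followed the scaling. It turned to 0.19 and 0.17 under the same scalings, and was -0.30 with libraries rescaled to the same sum, all 3 past the threshold. Uhrf1 had the highest mean of the set in Pro and Mbd2 from Baso onward, but their libraries overlapped in Baso and in Poly.

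Between neighbouring stages, the log2 fold change of each of these 3 genes was largest in size from Poly to Ortho. Against Poly, the log2 fold change in Ortho was -1.08 for Uhrf1 (limma adjusted p = 8.76e-07), -0.95 for Mbd2 (limma adjusted p = 3.73e-07) and -0.90 for Dnmt1 (limma adjusted p = 3.20e-06), where the median of all genes was -0.08. They were the 3 of 9 genes that fell in this comparison, beside 21.7% of all genes tested, and none of the 9 rose, beside 4.43% of all genes. Uhrf1 was the only one lower by at least 2-fold, beside 4.81% of all genes. With the libraries rescaled to the same sum, Uhrf1 was at -1.27, Mbd2 at -1.13 and Dnmt1 at -1.09, with a median of all genes of -0.23. With hemoglobin genes left out they were at -0.94, -0.81 and -0.76, with a median of 0.04. Median centring gave -0.94, -0.80 and -0.76, with a median of 0.07.

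The step from Baso to Poly was smaller. Dnmt1 (log2 fold change -0.32, limma adjusted p = 0.0240) and Mbd2 (-0.25, limma adjusted p = 0.0244) were the 2 of 9 genes that fell, beside 5.77% of all genes, and none rose, beside 6.58%. Uhrf1 was at -0.22 (limma adjusted p = 0.0843) and Tet3 at 0.29 (limma adjusted p = 0.0827). Blocked by replicate number in a fit of Baso, Poly and Ortho, 4 of the 9 passed, beside 22% of all genes. Without the block 12.4% of all genes passed. With it, the adjusted p in limma was 0.0299 for Uhrf1 and 0.0248 for Tet3. With the block over all 12 libraries Tet3 passed as well (limma adjusted p = 0.0314). Both calls were fragile. Dnmt1 was lost without Baso replicate 3 or any 1 of the Poly libraries, Mbd2 also without Baso replicate 2. The count ranged from 0 to 3 as single libraries were left out, beside 4.39% to 15.3% of all genes.

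Tdg, which removes oxidised methylcytosine and mispaired thymine, fell between Pro and Baso. It lies on chr10:82629828-82650799 (plus strand). Its FPKM was 18.01, 18.5 and 17.3 in Pro, 9.91, 11.2 and 11.6 in Baso, 9.45, 9.92 and 8.004 in Poly and 9.20, 8.52 and 10.4 in Ortho. The Pro libraries lay above all others, whereas Baso, Poly and Ortho overlapped. Against Pro the log2 fold change in limma was -0.67 for Baso (standard error 0.10, adjusted p = 0.00016), -0.91 for Poly (adjusted p = 1.16e-05) and -0.87 for Ortho (adjusted p = 8.73e-06), and each stayed past the threshold in every alternative run. Poly against Baso gave -0.24 (95% interval -0.45 to -0.02, limma adjusted p = 0.14), and Ortho against Poly gave 0.03 (95% interval -0.18 to 0.25, limma adjusted p = 0.862). Exons of Tdg share 367 bases with Glt8d2 on the other strand, and the sources used here do not state strand in the counting, but the FPKM of Glt8d2 was at most 0.338.

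**Figure D2:**
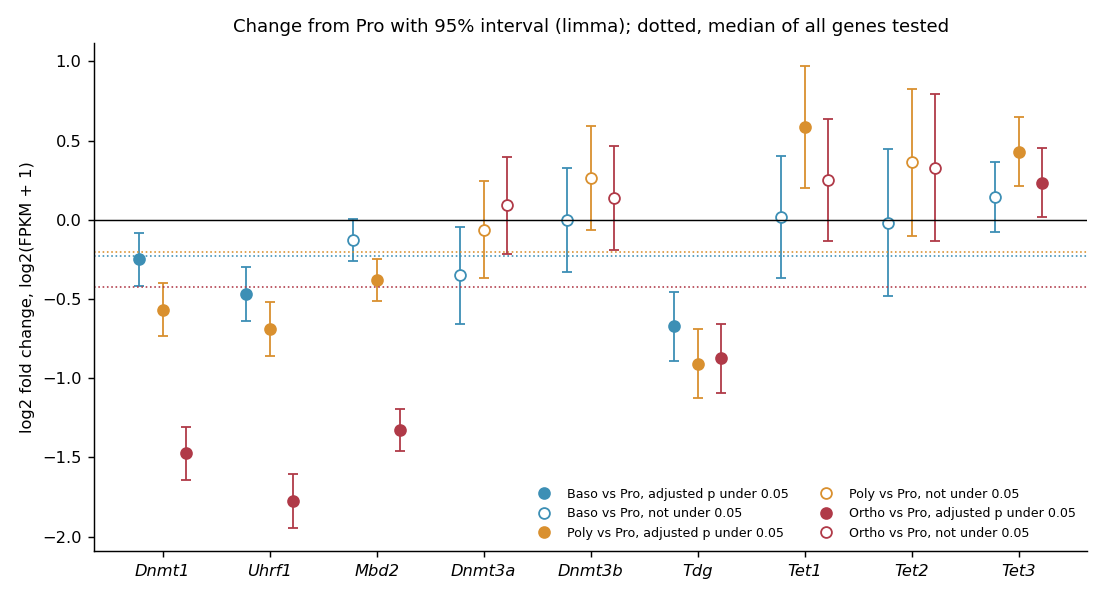
Log2 fold change on log2(FPKM + 1) from Pro to Baso, Poly and Ortho for each gene, with the 95% interval from limma, filled where the adjusted p was under 0.05. Dotted lines mark the median of all genes tested. Tet1 is filled in Poly but is not read as a rise, since it entered the test through its high libraries. Dnmt1, Uhrf1 and Mbd2 reach -1.33 or lower in Ortho, Tdg is between -0.67 and -0.91 in all 3 comparisons, and the Dnmt3 and Tet genes lie between -0.35 and 0.59.

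The de novo methyltransferases were low and did not pass the test in any comparison with the main settings, on all 12 libraries and the FPKM as deposited. Dnmt3a (chr12:3806007-3914443, plus strand) had an FPKM of 6.40, 4.34 and 6.19 in Pro, 4.25, 3.94 and 4.30 in Baso, 5.50, 5.36 and 5.04 in Poly and 5.12, 7.29 and 5.80 in Ortho. Pro and Ortho spanned much the same range, and the log2 fold change between them was 0.09 (95% interval -0.21 to 0.40, limma adjusted p = 0.558). In Baso it was -0.35 (limma adjusted p = 0.0509), with every Baso library below every Pro library. This value passed with libraries rescaled to the same sum (-0.50), without Pro replicate 2 (-0.50), without Ortho replicate 1 or 2, with a pseudocount of 0.1 (-0.41) and without the variance trend, and was -0.09 when hemoglobin transcripts were removed before scaling and -0.05 when each library was centred. Dnmt3b (chr2:153649450-153687730, plus strand) had an FPKM of 1.52, 2.77 and 2.03 in Pro, 2.17, 1.81 and 2.23 in Baso, 2.25, 3.02 and 2.84 in Poly and 2.13, 2.40 and 2.62 in Ortho. All stages overlapped with Pro, and in Ortho the log2 fold change was 0.14 (95% interval -0.19 to 0.47, limma adjusted p = 0.415). An antisense transcript, Dnmt3aos, shares 133 exon bases with Dnmt3a, and was not analysed here.

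Within the methyltransferase family the balance moved while Dnmt1 kept the largest part. Dnmt1 made up 94.3% ± 0.59 of the summed FPKM of Dnmt1, Dnmt3a and Dnmt3b in Pro (SD, n = 3), and 94.6% ± 0.33, 91.5% ± 0.77 and 84.4% ± 2.41 in Baso, Poly and Ortho. Dnmt3a made up 4.13% ± 0.89 in Pro and 11.2% ± 2.21 in Ortho, and Dnmt3b 1.54% ± 0.45 and 4.38% ± 0.38. All Ortho libraries lay outside the range of the other stages in each of these shares, which do not depend on how a library is scaled.

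Of the Tet genes, Tet3 was the most abundant in every library, with 67.9% ± 4.09 of the summed Tet FPKM in Pro and 65.4% ± 5.04 in Ortho (SD, n = 3). Tet3 (chr6:83362373-83459084, minus strand) had an FPKM of 10.1, 9.03 and 9.40 in Pro, 11.8, 9.13 and 10.98 in Baso, 13.8, 12.3 and 13.4 in Poly and 12.2, 10.5 and 11.4 in Ortho. The Poly libraries were the highest, and Baso overlapped with Pro. Tet3 rose in Poly against Pro by 0.43 on the log2 scale (standard error 0.10, adjusted p = 0.00261 by limma), which missed the threshold with libraries rescaled to the same sum (0.27). In Ortho it rose by 0.24 (limma adjusted p = 0.0491), a call that turned to -0.10 with the same rescaling, and that was lost with a pseudocount of 5, without the filter, without the variance trend, with the 2 stages alone and in 8 of the 12 fits that left out a library.

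Tet2 (chr3:133463679-133545139, minus strand) had an FPKM of 3.51, 4.88 and 3.43 in Pro, 5.71, 2.98 and 3.24 in Baso, 6.01, 4.80 and 5.14 in Poly and 5.10, 3.99 and 6.64 in Ortho. The stages overlapped, and the log2 fold change against Pro was -0.02 for Baso, 0.36 for Poly and 0.33 for Ortho (95% interval -0.14 to 0.79, limma adjusted p = 0.178). Tet1 (chr10:62804570-62908996, minus strand) was the lowest of the 9, with an FPKM of 0.886, 0.376 and 0.441 in Pro, 0.816, 0.461 and 0.458 in Baso, 0.950, 1.31 and 1.82 in Poly and 0.839, 0.690 and 1.03 in Ortho. The lowest Poly library lay just above the highest Pro library, a log2 fold change of 0.59 (standard error 0.18). Since Tet1 passed the filter on low values through Poly and Ortho libraries, its test against Pro is not read as a rise. Without Poly replicate 3 the value was 0.45. Only 2.32% of the genes tested had a lower FPKM in Pro.

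The rise of Tet3 in Poly stood beside rises of markers of neutrophils and B cells. Of 8 neutrophil markers 8 rose in Poly against Pro, among them S100a8 and S100a9, and 7 in Baso and 7 in Ortho. Of all genes 23.3% rose in Poly, 14.9% in Baso and 22.7% in Ortho. The 6 B cell markers summed to 43.7 to 70.5 FPKM in Pro, 110.3 to 139 in Poly and 119 to 151 in Ortho. All 6 rose in Poly and in Ortho, beside 23.3% and 22.7% of all genes. The 6 macrophage markers summed to 29.0 to 34.8 in Pro and 61.7 to 73.0 in Ortho, with C1qa and C1qb under an FPKM of 1. Of the 4 tested, 3 rose in Ortho, beside 22.7% of all genes. Vcam1 did not pass the test, with a mean of 3.03 FPKM in Pro and 2.25 in Ortho. Of the T and NK cell markers Nkg7 alone had a mean FPKM of at least 1, and Cd3e was at 0 in Pro and Ortho. The 4 megakaryocyte and platelet markers summed to 64.0 to 118 FPKM in Pro, 40.7 to 99.1 in Baso, 38.8 to 49.1 in Poly and 34.7 to 43.9 in Ortho, so that Poly and Ortho lay below Pro. Of the 4, 3 fell in Poly, beside 42.7% of all genes. In Ortho 3 fell and 1 rose, beside 53.2% and 22.7%, with Ppbp at -2.52 and Gp9 at -1.96. The part of these cells in the values of the 9 genes was not tested.

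Counted over the 9 genes against Pro, 3 fell and 0 rose in Baso, beside 42.1% and 14.9% of all genes. In Poly 4 fell and 2 passed the test upward, beside 42.7% and 23.3%, but 1 of the 2 was Tet1, which had entered through its high libraries, and in Ortho 4 fell and 1 rose, beside 53.2% and 22.7%. Members lower by at least 2-fold numbered 0, 0 and 3, beside 8.54%, 12.8% and 23.8% of all genes. The shares of the 9 were near those of all genes, so that the counts themselves do not set the set apart. The 3 comparisons share the Pro libraries. The split depended on the scaling. With hemoglobin genes left out, or with libraries centred on their median, 5 of the 9 passed the test upward and 4 fell in Ortho. Under these scalings 34.8% or 34.5% of all genes rose and 34.4% or 35.5% fell. Dnmt3a (0.51), Dnmt3b (0.47), Tet1 (0.44), Tet2 (0.73) and Tet3 (0.68) were then past the threshold in limma with hemoglobin genes left out. Tet1 is not read as a rise here either, since it had entered through its high libraries. Those scalings moved the median of all genes in Ortho to -0.01 and -0.03, whereas rescaling to the same sum moved it to -0.73.

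**Figure D3:**
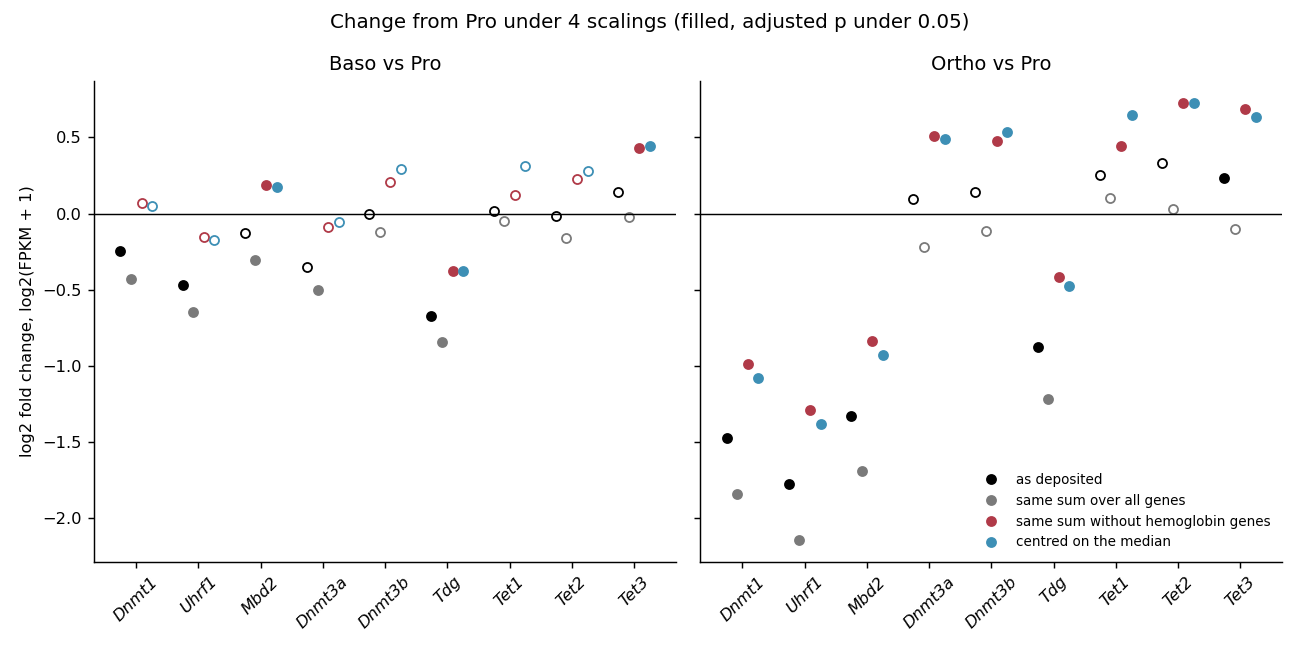
Log2 fold change on log2(FPKM + 1) of each gene in Baso (left) and Ortho (right) against Pro with FPKM as deposited, rescaled to the same sum, rescaled without hemoglobin genes and centred on the median, filled where the limma adjusted p was under 0.05. In Ortho, Dnmt1, Uhrf1, Mbd2 and Tdg lie below 0 under all 4 scalings. In Baso, Dnmt1 and Mbd2 lie above 0 under the last 2 of them. Under the same 2 scalings Tet1 is filled in Ortho, but is not read as a rise.

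Ratios between genes of one library do not change with its scaling. Dnmt1 exceeded the summed Tet FPKM 9.17, 9.27 and 9.26 times in the Pro libraries, 5.68, 8.22 and 8.12 times in Baso, 4.32, 4.41 and 4.43 times in Poly and 2.56, 2.87 and 2.51 times in Ortho. The means were 9.23 ± 0.052, 7.34 ± 1.44, 4.39 ± 0.059 and 2.65 ± 0.194 (SD, n = 3), with no overlap between neighbouring stages. The ratio combines a fall of Dnmt1 with a summed Tet FPKM of 14.0 ± 0.639 in Pro and 17.5 ± 2.01 in Ortho. Baso replicate 1 stood below the other Baso libraries, and its summed Tet FPKM was 18.4 against 12.6 and 14.7.

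Uhrf1 and Dnmt1 did not fall in strict proportion. The ratio of Uhrf1 to Dnmt1 was 1.41 ± 0.038 in Pro (SD, n = 3), 1.21 ± 0.037 and 1.29 ± 0.033 in Baso and Poly, and 1.14 ± 0.023 in Ortho, and Ortho did not overlap with any other stage except at the lower edge of Baso. Dnmt1 fell less than Pcna, the sliding clamp that also carries Dnmt1 to new DNA. The ratio of Dnmt1 to Pcna was 0.197 ± 0.010 in Pro, 0.223 ± 0.0086 and 0.225 ± 0.0026 in Baso and Poly, and 0.275 ± 0.015 in Ortho. The ratio of Tdg to Dnmt1 went from 0.139 ± 0.0028 in Pro to 0.10 ± 0.0070 in Baso and 0.204 ± 0.012 in Ortho.

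**Figure D4:**
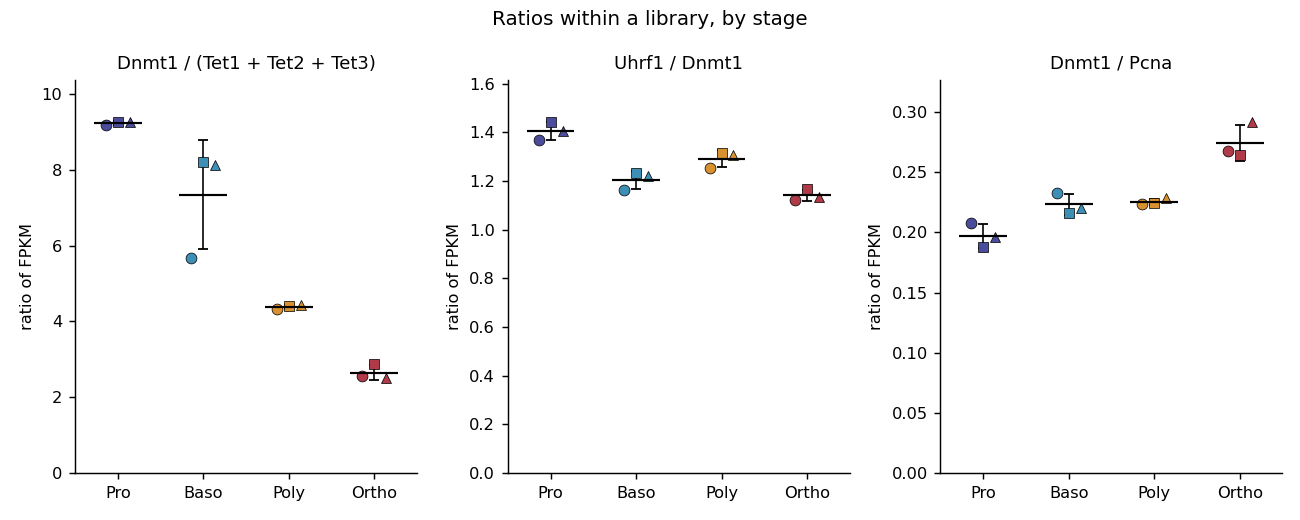
Ratios of FPKM within each library (vertical axes start at 0), with circles, squares and triangles for replicates 1, 2 and 3, a line for the mean and bars for the SD (n = 3). Dnmt1 over the summed Tet genes goes from 9.23 in Pro to 2.65 in Ortho, Uhrf1 over Dnmt1 from 1.41 to 1.14, and Dnmt1 over Pcna rises from 0.197 to 0.275.

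Profiles across the 12 libraries were compared by Pearson correlation of log2(FPKM + 1) with genes whose mean FPKM was at least 5, as a description in which the points share stages and scaling. Closest to Dnmt1 were Atad5 (0.996), which unloads Pcna from DNA, Bard1 (0.996), the partner of Brca1, and Pcna (0.996). Closest to Uhrf1 were Pcna (0.997), Gins3 (0.997), a part of the replicative helicase, and Atad5 (0.996). Mbd2 was closest to D030056L22Rik (0.995), Stk24 (0.994) and Cenpk (0.994), a kinetochore gene. Tdg was closest to Gm10275 (0.988), 2410015M20Rik (0.982) and Rps19-ps6 (0.982). The low genes had no such close neighbours: the highest values were 0.955 for Tet3 (with Slfn4), 0.876 for Tet1 (Eml2), 0.864 for Tet2 (Stk26), 0.850 for Dnmt3b (Mthfsl) and 0.820 for Dnmt3a (Fam174a). Next came Igf1r (0.949) and Cd300lf (0.936) for Tet3, and Svil (0.855) and Atrn (0.827) for Tet1. For Tet2 they were Laptm5 (0.861) and Osbpl9 (0.854), for Dnmt3b Rnf115 (0.847) and Mark4 (0.838), and for Dnmt3a Tmem106c (0.799) and Mfsd5 (0.792). Among the members Dnmt1 and Uhrf1 correlated at 0.993, Dnmt1 and Mbd2 at 0.987 and Dnmt1 and Tdg at 0.675.

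The genes of DNA replication fell as well. All 9 of the list (Pcna, 6 Mcm helicase subunits, Rrm2 and Tyms) fell by at least 2-fold in Ortho against Pro, beside 23.8% of all genes, with a median log2 fold change of -2.02, and their summed FPKM went from 2356 to 2604 in Pro to 603 to 614 in Ortho. Mcm2 was at -2.26 and Mcm7 at -2.26. Of 14 other writer genes and partners tested, 10 fell and 0 rose, beside 53.2% and 22.7% of all genes, and their median of -0.51 was near that of all genes, with Pcna at -1.97 and Hells, a chromatin remodeller needed for methylation, at -1.06. Dnmt3l, the cofactor of the de novo enzymes, was too low to be tested.

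A further list holds relatives of Mbd2 and other reader families, and not all of its genes, Mbd3 among them, bind methyl-CpG selectively. Of its 8 genes tested, 6 fell and 0 rose in Ortho against Pro, beside 53.2% and 22.7% of all genes. Their median of -0.44 was near the -0.42 of all genes, with log2 fold changes of -1.36 for Mbd3 and -1.11 for Mbd4, a glycosylase that also binds methyl-CpG. Beside the same shares of all genes, 11 of 13 NuRD genes fell and 0 rose, led by Cdk2ap1 (-1.51) and Mta2 (-1.41). Of 13 genes of base excision repair, which acts after Tdg, 10 fell and 1 rose, beside 53.2% and 22.7%, with the ligase Lig1 at -2.25 and the flap nuclease Fen1 at -1.45. The medians of the NuRD and repair lists were -1.14 and -0.999.

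Of 12 genes around the Tet enzymes, 7 fell and 4 rose in Ortho against Pro, near the 53.2% and 22.7% of all genes. Mean FPKM went up from Pro to Ortho for Ogt (46.3 to 78.9), Samhd1 (46.4 to 69.6), Idh1 (16.1 to 28.5) and Cxxc5 (5.32 to 11.9). Idh3a, a subunit of a mitochondrial enzyme that makes the Tet cosubstrate oxoglutarate, was at -1.75 in Ortho (limma adjusted p = 6.48e-08), and Dcaf1, a ubiquitin ligase subunit that acts on Tet proteins, at -1.40. Of the 2 cytidine deaminases tested, Apobec3 fell (-1.10) and Apobec1 rose (0.50). Of 12 genes of methyl donor supply 10 fell and 1 rose, beside 53.2% and 22.7% of all genes, with a median of -1.27. Mthfd1, of the folate pathway, was at -2.82, having gone from 106 ± 20.2 FPKM in Pro to 20.2 ± 3.77 in Baso (SD, n = 3), and Adk, which clears the adenosine left by methylation, was at -1.99.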

How the data were processed

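Libraries were assigned to stages from the labels. Ortho replicates 2 and 3 carry a general erythroblast label and were placed by their titles. Per the labels and the study's methods, the authors trimmed reads (Cutadapt, Trimmomatic), used HISAT2 and mm10 for alignment and featureCounts for counting, and deposited FPKM values, 1 per gene and library. The FPKM tool, annotation and versions are not given in the sources used here. The labels name Trizol and NEBNext Ultra, the methods another lysis and KAPA Hyper Prep. FPKM are not counts, so the authors' DESeq2 test was not repeated. Low values showed no steps of whole reads (the fullest bin of width 0.1 held 4.42% of log2 ratios between libraries, over 950 genes under an FPKM of 0.3), so depth is unknown and no counting error is given. 1 of 29839 lines repeated an identifier and was dropped.

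The test was limma 3.58.1 (R 4.3.3) with a variance trend, fitted to log2(FPKM + 1) over all 12 libraries, for genes whose FPKM reached 1 in 3 or more of them, with two-sided p-values adjusted by Benjamini-Hochberg over 12994 genes. Fold changes on this scale understate those of low genes. A gene rose or fell at an adjusted p under 0.05, and changed by at least 2-fold where the log2 fold change also reached 1 in size. An exact permutation test of 3 against 3 cannot give a p below 0.1. The model was tested on simulated data. Annotation (GENCODE, mm10), promoters (RefSeq) and figures were handled in Python 3.11.15.

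The 9 genes and the other gene lists were chosen with earlier results of these data known. The text names all 9, and for each of them the 3 closest genes by Pearson correlation. For each list it names the 2 genes with the largest change in Ortho against Pro among those past the threshold (for marker and hemoglobin lists, some of these). Other genes named were chosen after their values were seen. Alternatives were other pseudocounts (0.1 and 5), filters and scalings, no variance trend, the 2 stages alone, leaving out each library, and the replicate number as a block. Deviations from stage means correlated between libraries of the same number at 0.182 to 0.238 for Baso and Poly and 0.156 to 0.264 for Baso and Ortho. The range was 0.156 to 0.319 for Poly and Ortho, and 0.00524 to 0.0968 between Pro and the rest. Libraries of different number were not compared in this way, so that a pairing of the stages was not tested. The main model took stage alone.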

Additional observations from a re-analysis of the deposited data

How the results depend on the processing

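The falls of Dnmt1, Uhrf1, Mbd2 and Tdg in Ortho against Pro, of Dnmt1, Uhrf1 and Tdg in Poly against Pro, of Tdg in Baso against Pro and of Dnmt1, Uhrf1 and Mbd2 in Ortho against Poly were past the threshold in every alternative run. The depth is unknown, so that values near an FPKM of 1, as for Tet1, carry an error the files do not show. Of the alternatives that kept all libraries, 396 values for single genes kept direction and side of the threshold, 25 passed it anew, 11 lost it and 21 changed sign. Of the called values, Dnmt1 in Baso and Tet3 in Ortho against Pro were those that changed sign, and the cause was not tested. The replicate block changed no call other than the 2 given for Poly against Baso. There the block in Baso, Poly and Ortho gave 4 of 9 genes, beside 22% of all genes.

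With a pseudocount of 0.1, Dnmt3b in Baso was at 0.0071, and 1 gene, Tet1, was changed by at least 2-fold in Poly against Pro. Tet1 is not read as a rise here either, since it had entered through its high libraries. With libraries rescaled to equal sums, 5 genes changed in Baso, beside 60.3% of all genes, and 1 in Poly against Baso, beside 9.21%. By at least 2-fold, 1 changed in Poly and 3 in Ortho against Poly. Signs changed for Tet1 (-0.0511) and Tet3 (-0.020) in Baso and for Dnmt3a (-0.0057) and Tdg (-0.13) in Ortho against Poly. They also changed for Dnmt3a (-0.22), Dnmt3b (-0.11) and Tet3 (-0.10) in Ortho against Pro. With hemoglobin genes left out, 9 genes changed in Ortho against Pro, beside 69.2% of all genes, and 1 of the 9 by at least 2-fold. In Ortho against Poly 0 changed by at least 2-fold. Dnmt1 (0.066), Dnmt3b (0.20), Tet2 (0.23) and Mbd2 (0.19) in Baso, Dnmt3a in Poly (0.23) and Tet2 in Ortho against Poly (0.0873) changed sign. With median centring, 9 genes changed in Ortho against Pro, beside 70.1% of all genes, and 0 by at least 2-fold in Ortho against Poly. Dnmt1 (0.0484), Dnmt3b (0.29), Tet2 (0.28) and Mbd2 (0.17) in Baso and Dnmt3a in Poly (0.19) changed sign. So did Dnmt3b (0.0226) and Tet2 (0.11) in Ortho against Poly. Under both scalings the 9 include Tet1, which is not read as a rise. For the counts at 2-fold in these alternatives no share of all genes is given.

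Levels in FPKM that moved by more than 1 SD with hemoglobin genes left out were, in Pro, Dnmt1 (107), Uhrf1 (150.0), Tet3 (7.84), Mbd2 (126) and Tdg (14.8), in Poly, Dnmt3a (5.57), Uhrf1 (118) and Mbd2 (124), and in Ortho, Dnmt1 (53.3), Dnmt3b (2.77), Uhrf1 (60.8), Tet3 (13.2), Mbd2 (70.2) and Tdg (10.9). Leaving out single libraries gave signs of both kinds for Baso against Pro in Dnmt3b (-0.14 to 0.15), Tet1 (-0.089 to 0.16) and Tet2 (-0.25 to 0.12), for Poly against Pro in Dnmt3a (-0.21 to 0.0233), for Ortho against Pro in Dnmt3a (-0.057 to 0.19) and Dnmt3b (-0.0021 to 0.29), and for Ortho against Poly in Tdg (-0.0474 to 0.094) and Tet2 (-0.19 to 0.12). The count in Poly against Baso ranged from 0 to 3, beside 4.39% to 15.3% of all genes.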
